A study of Mus musculus with 4 samples.

Results

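The genes described are 37 members of the autophagy machinery, from the initiating kinases to the cargo receptors. Their probes were all array probes listed under a mouse RefSeq transcript of a member, without regard to how they behaved. By that rule 36 of the 37 genes were found, among 17466 named genes, and they were carried by 59 of 31089 named probes. There were 20 members with 1 probe, 10 with 2, 5 with 3 and 1 with 4. No probe was matched to Gabarapl1, a GABARAP homologue, and it is not analysed here. Atg9b was not well above background on any array at either of its probes, so 35 members were tested.

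Autophagy is the route by which cells enclose cytoplasm, organelles and protein aggregates in a double membrane, the autophagosome, and deliver them to lysosomes for breakdown. A kinase complex starts the process, a lipid kinase complex marks the membrane, lipid transfer proteins enlarge it, and a ubiquitin-like conjugation system attaches LC3 and GABARAP proteins to it, which in turn bind receptors that carry the cargo. In fibroblasts autophagy is known to run at a basal rate and to increase when nutrients are short, and it has been studied in senescent cells.

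RNA came from mouse embryonic fibroblasts (MEFs), primary cells with a limited life in culture, at passage 7, when replicative senescence set in, and at passage 2, when they were still growing. Each passage was read on 2 arrays of 1 colour (Cy3). The cells of both passages were grown in the same serum-containing medium, with no drug or other agent named in the labels, and strain, genotype and embryo age are not given in the sources used here. The labels describe 3 independent cultures whose RNA was pooled, so the arrays of a passage may be technical repeats and the p-values then measure the spread between arrays only. All 4 arrays lay on 1 slide read in 1 scan, with the passages at different positions, so that position and passage cannot be told apart.

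Levels are log2 processed signals relative to the 75th percentile of their array, and a change is the passage 7 mean minus the passage 2 mean on this log2 scale. The 75th percentile itself was 964 and 402 in passage 7 samples, against 1024 and 1404 in passage 2 samples. The share of spots well above background was 65.8% to 70.6% at passage 7 and 71.9% to 72.7% at passage 2. The robust SD between arrays over all genes was 0.19 at passage 7 and 0.33 at passage 2. Of 10 fibroblast markers, 9 were matched and all 9 were well above background on all 4 arrays. Pdgfra fell, and Col1a2, Dcn and Col3a1 had changes of -0.73, -0.54 and -0.06 that did not pass, while the other 5 had positive changes that did not pass. Their summed signal, in which S100a4 and Fn1 weigh most, was 706 and 1048 times the 75th percentile at passage 7, against 543 and 442 at passage 2. The sum for the 5 matched of 7 macrophage markers was 0.918 and 1.22 at passage 7, against 2.40 and 2.19 at passage 2, with Ptprc not well above background on any array. For 7 epithelial markers it was 0.302 and 0.418 at passage 7, against 1.19 and 1.04 at passage 2, with 5 of the 7 well above background on all arrays. Of these, 5 had negative changes, among which Krt14, Krt8 and Krt18 fell, and 2 had positive ones, among which Cldn4 rose. For 7 endothelial markers the sum was 0.989 and 0.998 at passage 7, against 0.700 and 0.599 at passage 2. These markers went both ways, with 4 positive changes, among which Emcn rose (2.06), and 3 negative ones, among which Cdh5 fell (-0.71). For 7 skeletal muscle markers the sum was 21.3 and 23.3 at passage 7, against 11.6 and 8.19 at passage 2. That last sum was nearly all from Acta1, which rose, while 5 of the 7 muscle markers had negative changes, Myh3 fell and the median was -0.40. The part of these other cells in the results below was not tested. In such bulk RNA a change in the share of a cell type and a change in the RNA per cell cannot be told apart.

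The contrast between the passages addresses which parts of the machinery changed as growing fibroblasts became senescent. At passage 7, 7 of the 35 tested members rose and none fell at an adjusted p under 0.05 in limma. Those that rose were Atg7, the enzyme that activates LC3 and ATG12 for conjugation, the cargo receptors Sqstm1 and Nbr1, the LC3 homologue Gabarapl2, the lipid transfer genes Atg2a and Atg2b, and Uvrag, a partner of the lipid kinase. Their changes lay between 1.71-fold and 2.90-fold, and Atg7, Sqstm1 and Gabarapl2 exceeded 2-fold. Genes of the initiating kinase complex and of the ATG4 proteases had no member that passed.

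Those 7 make 20% of the tested members, against 13.4% of all 13823 tested genes that rose. The 0 members that fell stand against 11.9% of all genes, and at an unadjusted p under 0.05 there were 13 members higher and 1 lower, against 24.2% of all genes higher and 17.5% lower. With a minimum of 2-fold added, 3 members rose and 0 fell, against backgrounds of 10.0% and 9.46%. The median change of the members was 0.53, against 0.20 over all genes, a difference of 0.33. That difference was -0.07 after normexp background correction with the 75th percentile, 0.09 when deviant backgrounds were replaced first, 0.15 without passage 7 replicate 1 and 0.19 with the mean of all probes. Of the 35 members, 27 lay above the median of all genes and 8 below it, but with these forms of normexp correction 13 and 19 of the 35 lay above it. Both passage 7 arrays were above both passage 2 arrays for 26 members, a pattern that 40.6% of all genes showed. They were below both for 3 members, namely Ulk2, Rb1cc1 and Atg5, against 27.8% of all genes.

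**Figure D1:**
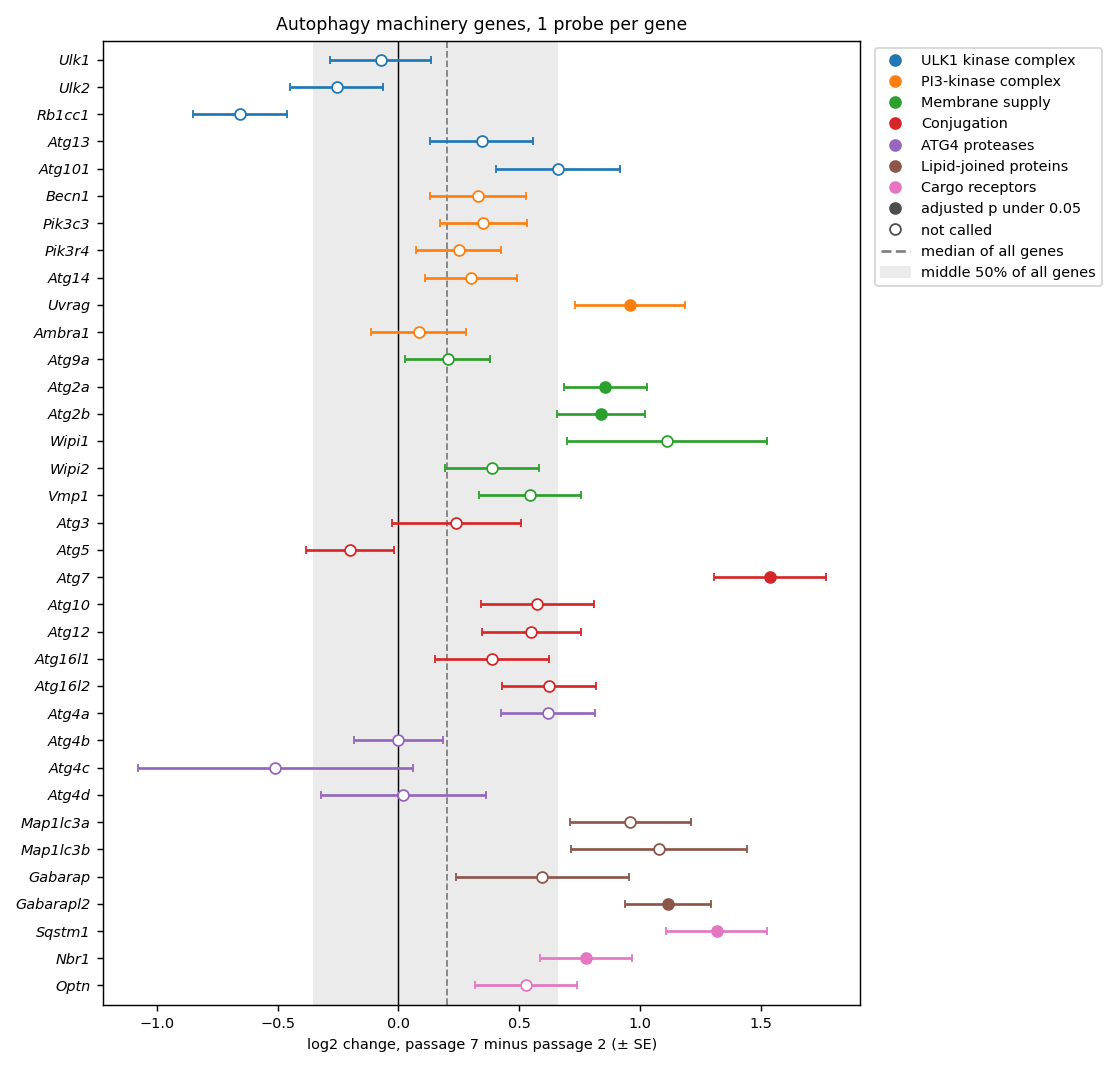
Log2 change, passage 7 minus passage 2 (x axis, ± SE from limma, 2 arrays per passage) of the 35 tested members, coloured by role, with filled points for an adjusted p under 0.05. The dashed line is the median of all genes (0.20) and the grey band the middle 50% of all genes. The 7 filled points all lie to the right of the band, and 27 of the 35 points lie to the right of the dashed line.

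The number of members called depended on the arrays and on the scaling. Without the passage 7 replicate 2 array the calls of the members in limma were lost, in a fit where calls over all genes were fewer too. The median change of the members relative to all genes was then 0.36, against 0.33 with all arrays. Atg7 alone passed without the passage 7 replicate 1 array, and Sqstm1 alone without the passage 2 replicate 2 array, where 4.50% and 6.06% of all genes rose. By quantile normalisation or by median scaling 3 members rose, and the authors' value table gave 5, and none fell in these settings. The 3 members make 8.57% of those tested, below the 11.03% and 11.34% of all genes that rose in these scalings, and the 5 make 14.3%, against 10.8% in the authors' values. After normexp background correction of the raw signals with 75th percentile scaling none of 13818 genes passed, the members included. The same correction with quantile normalisation called 7 members to rise, or 20% against 12.4% of all genes, and with replaced backgrounds 2 members, or 5.71% against 5.43%. The median of all genes was 0.02 by quantile normalisation, 0.03 by median scaling, -0.06 in the authors' values and 0.50 after normexp with the 75th percentile, against 0.20. The 7 members that rose lay 0.58 to 1.34 above the median of all genes, but after normexp with the 75th percentile Uvrag, Atg2a and Nbr1 were at -0.05, -0.03 and -0.07 relative to it. Of all genes called, 53.0% rose, against 38.3% in the authors' value table.

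The conjugation system held the member with the largest change. Of its 7 genes 1 rose (14.3%, against 13.4% of all genes) and none fell (against 11.9%). The median change of the group was 0.55, against 0.20 over all genes. At an unadjusted p under 0.05, 3 were higher and 0 lower, against 24.2% and 17.5% of all genes. Atg7 had levels of 1.99 and 2.40 at passage 7, against 0.54 and 0.77 at passage 2. Both passage 7 arrays were far above both passage 2 arrays, with means of 2.19 ± 0.29 at passage 7 and 0.65 ± 0.16 at passage 2 (SD, n = 2 each). Its change was 1.54 ± 0.23 (SE, here and below) on the log2 scale, or 2.90-fold, which passed (adjusted p = 0.0156), and its 3 probes gave log2 changes of 1.28, 1.33 and 1.54, each of which passed. The call was lost when passage 2 replicate 2 was left out (1.65, adjusted p = 0.0511) and when passage 7 replicate 2 was (1.33, adjusted p = 0.0858).

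The other enzymes and substrates of conjugation did not pass. Atg3, the conjugating enzyme for LC3, had a change of 0.24 ± 0.27, and its second probe one of 0.06. Atg10, the conjugating enzyme for ATG12, had 0.58 ± 0.23 (adjusted p = 0.136), while its dimmer probe changed by 1.21 and passed in the fit of all probes (adjusted p = 0.0147). The probes of Atg10 thus differed by 0.64, the widest gap among the members with several tested probes. Atg12, the ubiquitin-like protein itself, had a change of 0.55 ± 0.20, and Atg16l1, which places the conjugate on the membrane, one of 0.39 ± 0.24. Atg16l2, a homologue of Atg16l1, had 0.62 ± 0.19 (adjusted p = 0.0779). Atg5, to which ATG12 is joined, was the member of this group with a negative change, at -0.20 ± 0.18, and both its passage 7 arrays lay below both passage 2 arrays. In the authors' value table the changes of Atg3 and Atg16l1 were -0.16 and -0.01, so their direction was not settled.

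Cargo receptors bind ubiquitin-tagged material and LC3 at the same time. Of the 3 among the members, 2 rose (66.7%, against 13.4% of all genes), and the median change of the 3 was 0.78. Sqstm1, which encodes p62 and is itself degraded with its cargo, had levels of 6.17 and 6.39 at passage 7, against 4.82 and 5.11 at passage 2. The groups did not overlap, and the gap between them exceeded the gap between the arrays of either passage. Sqstm1 rose 2.49-fold (1.32 ± 0.21, adjusted p = 0.0175), and all 3 of its probes passed with changes of 1.11, 1.14 and 1.32. With quantile normalisation its change was 0.72 (adjusted p = 0.0958), and leaving out passage 7 replicate 1 (1.42, adjusted p = 0.0614) or replicate 2 (1.21, adjusted p = 0.111) also ended the call.

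Nbr1, a receptor of related build, had levels of 3.01 and 2.86 at passage 7, against 2.06 and 2.26 at passage 2, again without overlap. It rose 1.71-fold (0.78 ± 0.19, adjusted p = 0.0460), close to the threshold, and leaving out any 1 array ended the call, with adjusted p-values of 0.0717 to 0.240. Optn, the receptor optineurin, had levels of 0.02 and -0.09 at passage 7, against -0.75 and -0.38 at passage 2, and its change of 0.53 ± 0.21 did not pass (adjusted p = 0.134). Of its 3 probes, 1 passed in the fit of all probes (0.75, adjusted p = 0.0423), and the others gave 0.53 and 0.59. The 3 receptors had a positive change in every setting tried. Set against the median of all genes, only Nbr1 among them turned negative, at -0.07 after normexp correction with the 75th percentile.

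The LC3 and GABARAP proteins are joined to lipid in the autophagosome membrane, where they recruit receptors and aid closure. Of the 4 measured members 1 rose (25%, against 13.4% of all genes), with a median change of 1.02. At an unadjusted p under 0.05, 3 were higher, against 24.2% of all genes. Gabarapl2 had levels of 3.30 and 3.37 at passage 7, against 2.28 and 2.16 at passage 2. The arrays of each passage lay close together and the passages were well apart. It rose 2.17-fold (1.12 ± 0.18, adjusted p = 0.0176). Only the fit that left out passage 2 replicate 1 kept the call. It was lost when passage 2 replicate 2 (1.05, adjusted p = 0.0531), passage 7 replicate 1 (1.15, adjusted p = 0.0932) or passage 7 replicate 2 (1.08, adjusted p = 0.133) was left out.

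Map1lc3a had levels of 4.74 and 4.92 at passage 7, against 4.13 and 3.61 at passage 2. Its groups did not overlap either, but its change of 0.96 ± 0.25 missed the threshold (adjusted p = 0.0529). Map1lc3b, the LC3 form most often followed as a marker of autophagosomes, had levels of 4.27 and 4.75 at passage 7, against 3.01 and 3.86 at passage 2. The passage 2 arrays lay further apart than those of passage 7, and the change of 1.08 ± 0.36, or 2.11-fold, did not pass (adjusted p = 0.0927). Gabarap had levels of 4.66 and 4.91 at passage 7, against 4.65 and 3.73 at passage 2. Its passage 2 replicate 1 array lay just below both passage 7 arrays and replicate 2 well below them, and its change was 0.60 ± 0.36 (adjusted p = 0.273). All 4 had a positive change in every setting tried, the lowest being 0.07 for Gabarap after normexp correction with quantile normalisation. Relative to the median of all genes, Gabarap was at -0.42 and Map1lc3a at -0.17 after normexp correction with the 75th percentile. The genes of this family are similar in their coding sequence, and whether each probe separates them could not be checked here.

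**Figure D2:**
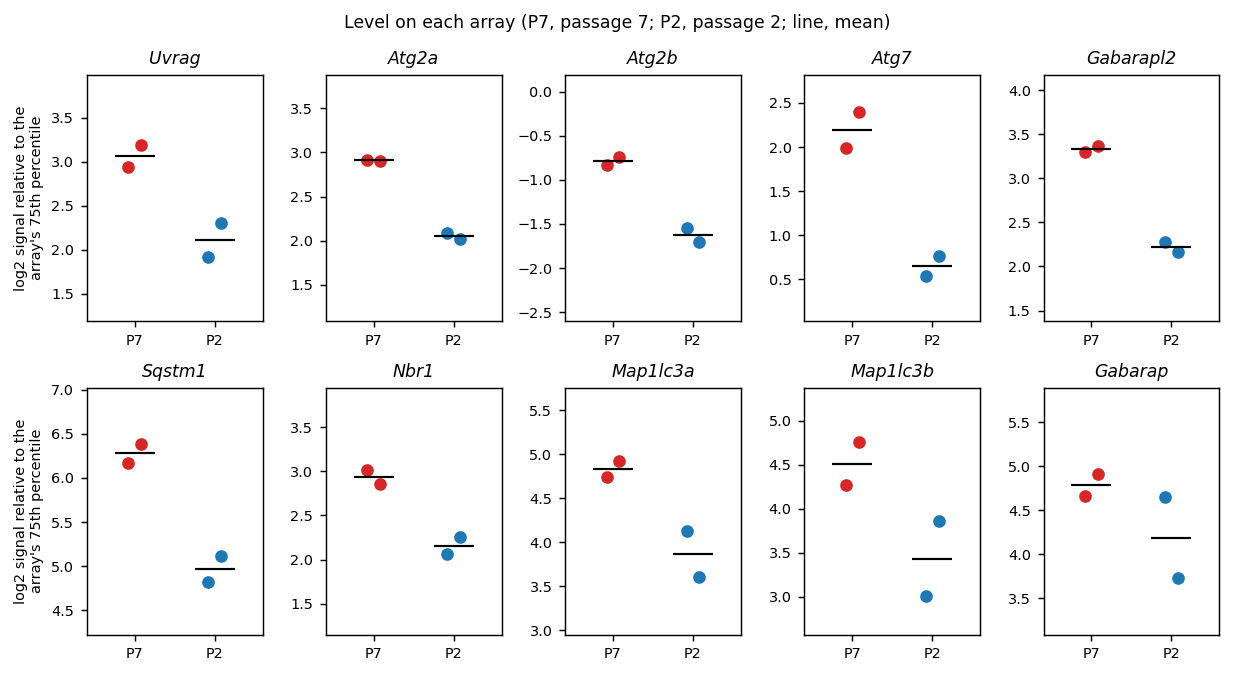
Level on each array (y axis, log2 signal relative to the array's 75th percentile, each panel spanning the same number of log2 units) for the 7 members that rose and the other 3 measured LC3 and GABARAP genes, with passage 7 on the left and passage 2 on the right and a line at each mean. In each panel both passage 7 points lie above both passage 2 points, by a hair for Gabarap and widely for Atg7 and Sqstm1.

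Membrane for the growing autophagosome is supplied by ATG9 vesicles and by the ATG2 proteins, which carry lipid from the endoplasmic reticulum. Of 6 tested genes 2 rose (33.3%, against 13.4% of all genes) and none fell (against 11.9%), with a median change of 0.69. At an unadjusted p under 0.05, 3 were higher and 0 lower, against 24.2% and 17.5% of all genes. Atg2a had levels of 2.92 and 2.91 at passage 7, against 2.09 and 2.02 at passage 2. Its arrays lay close together within each passage and the passages were clearly apart. Atg2a rose 1.81-fold (0.86 ± 0.17, adjusted p = 0.0293), with 0.92 at its second probe. Atg2b had levels of -0.83 and -0.74 at passage 7, against -1.55 and -1.70 at passage 2. It rose 1.79-fold (0.84 ± 0.18, adjusted p = 0.0344), with 0.84 at its second probe also, so that the paralogues changed by nearly the same amount. Both calls held without the passage 2 replicate 1 array and were lost without any other array, with adjusted p-values of 0.0695 to 0.207 for Atg2a and 0.0808 to 0.245 for Atg2b.

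Wipi1 and Wipi2 bind the lipid that the kinase complex makes and recruit ATG2 and ATG16L1. Wipi1 had levels of 3.98 and 3.42 at passage 7, against 3.09 and 2.09 at passage 2. The groups did not overlap, but the passage 2 arrays lay far apart. Its change of 1.11 ± 0.41, or 2.16-fold, had the largest error among the members above 2-fold and did not pass (adjusted p = 0.115). Wipi2 had a change of 0.39 ± 0.19 and Vmp1, a lipid scramblase of the endoplasmic reticulum, one of 0.54 ± 0.21, and neither passed. Atg9a, the scramblase of the ATG9 vesicles, had 0.20 ± 0.18, equal to the median of all genes. All 6 tested genes of this group had a positive change in every setting tried, but relative to the median of all genes Atg9a, Atg2a, Wipi2 and Vmp1 were at -0.05, -0.03, -0.33 and -0.07 after normexp correction with the 75th percentile. Atg9b, the other ATG9 gene, was read at -9.00 and -7.59 at passage 7, against -9.35 and -9.86 at passage 2, and was not well above background on any array.

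The lipid kinase complex makes phosphatidylinositol 3-phosphate at the site of autophagosome formation. Of its 6 genes 1 rose (16.7%, against 13.4% of all genes), and the median change was 0.31. That gene was also the 1 that was higher at an unadjusted p under 0.05, against 24.2% of all genes. Uvrag, which replaces ATG14 in the form of the complex that acts on endosomes and maturing autophagosomes, had levels of 2.94 and 3.19 at passage 7, against 1.92 and 2.30 at passage 2. The groups were separated by more than the gap within either passage. Uvrag rose 1.94-fold (0.96 ± 0.23, adjusted p = 0.0423), and both of its probes gave a change of 0.96. The call was lost without any 1 array, with changes of 0.77 to 1.15 and adjusted p-values of 0.0594 to 0.245. Relative to the median of all genes Uvrag was at 0.76, and at -0.05 after normexp correction with the 75th percentile.

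The other genes of this complex did not pass. Pik3c3, the catalytic subunit, had a change of 0.35 ± 0.18 and Pik3r4, its regulatory kinase-like subunit, one of 0.25 ± 0.18, with 0.19 and 0.22 at its other probes. Becn1, the scaffold beclin, had 0.33 ± 0.20, and Atg14, which directs the complex to the site of initiation, 0.30 ± 0.19. These 4 lay 0.05 to 0.15 above the median of all genes. After normexp correction with the 75th percentile they lay below it, Pik3c3 at -0.11, Pik3r4 at -0.64, Becn1 at -0.46 and Atg14 at -0.47. Ambra1, a regulator that binds beclin, had a change of 0.08 ± 0.20, and its 4 probes spanned only 0.04 to 0.08. Relative to the median of all genes Ambra1 was at -0.12, and its sign turned under other scalings, at -0.01 by quantile normalisation, -0.09 by median scaling and -0.06 in the authors' values.

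Of the 5 genes of the kinase complex that starts autophagy none passed in limma, against 13.4% of all genes that rose and 11.9% that fell. At an unadjusted p under 0.05, 0 were higher and 1 lower, against 24.2% and 17.5% of all genes. The median change of the 5 was -0.07, or -0.27 relative to all genes. Rb1cc1, its large scaffold, had levels of 0.18 and -0.02 at passage 7, against 0.63 and 0.83 at passage 2. Both passage 7 arrays were lower, and this was the most negative change of any member (-0.65 ± 0.19), but it did not pass (adjusted p = 0.0707). Its second probe changed by -0.38. With a variance model that follows the signal level, the change of Rb1cc1 passed (adjusted p = 0.0319). Ulk2 had a change of -0.26 ± 0.19, with both passage 7 arrays below both passage 2 arrays. Ulk1, the main initiating kinase, had levels of 2.55 and 2.54 at passage 7, against 2.80 and 2.44 at passage 2. These overlapped, and its change of -0.07 ± 0.21 did not pass (adjusted p = 0.810). The adaptors that hold the kinases together were on the other side, with changes of 0.35 ± 0.21 for Atg13 and 0.66 ± 0.26 for Atg101 (adjusted p = 0.285 and 0.125). In the fit that left out passage 2 replicate 1, Atg101 passed (0.95, adjusted p = 0.0462).

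The ATG4 proteases trim LC3 proteins before conjugation and release them from lipid afterwards. None of the 4 passed in limma, against 13.4% of all genes that rose and 11.9% that fell, and the median change was 0.01. At an unadjusted p under 0.05, 1 was higher and 0 lower, against 24.2% and 17.5% of all genes. Atg4a had a change of 0.62 ± 0.19 (adjusted p = 0.0798) with both passage 7 arrays above both passage 2 arrays, while its other probe was not well above background on any array. Atg4b, the most active of the family on LC3, had a change of -0.00 ± 0.18, with overlapping arrays. Atg4d had 0.02 ± 0.34 at the probe used and 0.09 and 0.64 at its other probes. Atg4c had levels of -5.51 and -5.41 at passage 7, against -5.78 and -4.13 at passage 2. Its passage 2 arrays lay on either side of the passage 7 arrays, and its change of -0.51 ± 0.57 turned to 0.32 without the passage 2 replicate 2 array and to -1.34 without the passage 2 replicate 1 array, where it passed (adjusted p = 0.0334).

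Across all probes, 56 of the 59 were well above background in at least 1 passage, and they were tested together with all 24774 such named probes. Of the 56, 17 rose and none fell, against 13.9% of all tested probes that rose and 14.0% that fell, and 24 were higher and 1 lower at an unadjusted p under 0.05, against 23.5% of all probes higher and 19.8% lower. Among members with several tested probes, all passed for Atg7, Sqstm1, Uvrag, Atg2a and Atg2b, and these 5 genes account for 12 of the 17. The probe of Map1lc3a, which missed the threshold in the fit of genes, passed among probes (adjusted p = 0.0463). Probes of 1 gene share its transcript and are no independent replicates. Of the 14 members with several tested probes, the largest and the smallest change differed by a median of 0.13, and by under 0.3 in 12. Atg10 and Atg4d were the exceptions.

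**Figure D3:**
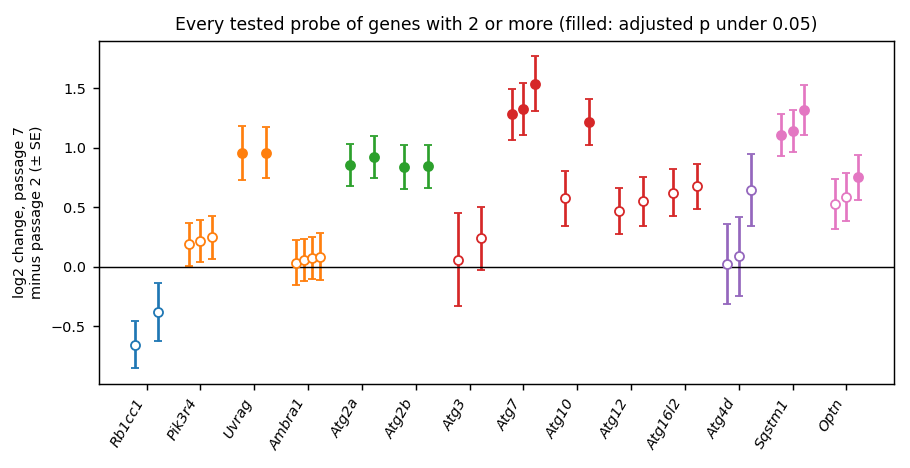
Log2 change (y axis, ± SE from limma) of every tested probe of the 14 members with several tested probes, ordered within a gene by the change, with filled points for an adjusted p under 0.05. The probes of Atg7 (1.28 to 1.54) and Sqstm1 (1.11 to 1.32) are all filled, while those of Atg10 (0.58 and 1.21) and Atg4d (0.02 to 0.64) are widely spaced.

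The factors TFEB and TFE3, known activators of autophagy and lysosome genes, bind elements with the core CACGTG, and so the promoters of members were searched for it. RefSeq promoter sequences (GRCm38.p6) were matched for 31 of the 37 members, as 36 distinct windows of 250 bases before a gene start. CACGTG, which reads the same on both strands, was found in 3 of the 36 windows (8.33%), against 6.02% of 32851 windows of all genes. The 3 were those of Atg7, Atg3 and Atg5. GTAAACA, a core of FOXO sites, was found on either strand in 0 of the 36 windows and in 3.17% of all. TGACNNNGC, a core of antioxidant response elements that bind NRF2, was in 5 windows of Atg13, Ulk2 and Vmp1 (13.9%), against 10.2% of all. No window of a member held more than 1 kind of these motifs, and that of Atg3 held CACGTG at 2 places. A match is a description of the letters and does not show that a factor binds. Shown first are the members that rose over 2-fold, then the other members whose window holds CACGTG, given in capitals.
Atg7, chr6:114670846-114671095, plus strand: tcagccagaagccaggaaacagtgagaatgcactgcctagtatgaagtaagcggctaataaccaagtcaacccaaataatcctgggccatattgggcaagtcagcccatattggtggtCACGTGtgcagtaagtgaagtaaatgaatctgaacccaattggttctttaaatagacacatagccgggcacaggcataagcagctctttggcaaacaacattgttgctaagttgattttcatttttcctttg
Sqstm1, chr11:50210821-50211070, minus strand: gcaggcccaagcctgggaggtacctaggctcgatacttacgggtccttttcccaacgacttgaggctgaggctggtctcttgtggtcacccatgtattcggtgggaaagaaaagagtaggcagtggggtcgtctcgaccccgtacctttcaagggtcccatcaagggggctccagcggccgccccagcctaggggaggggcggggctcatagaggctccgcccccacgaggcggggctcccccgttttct
Gabarapl2, chr8:111940453-111940702, plus strand: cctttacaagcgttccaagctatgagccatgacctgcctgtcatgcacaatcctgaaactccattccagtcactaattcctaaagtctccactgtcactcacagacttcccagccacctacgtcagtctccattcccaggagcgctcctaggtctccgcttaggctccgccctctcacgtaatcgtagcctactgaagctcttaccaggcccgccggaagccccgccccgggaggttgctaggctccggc
Atg3, chr16:45158579-45158828, plus strand: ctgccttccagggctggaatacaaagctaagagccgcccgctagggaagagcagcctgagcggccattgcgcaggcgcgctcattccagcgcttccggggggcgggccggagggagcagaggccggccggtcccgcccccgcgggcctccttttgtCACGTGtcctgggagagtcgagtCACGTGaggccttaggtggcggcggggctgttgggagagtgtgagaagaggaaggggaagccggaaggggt
Atg5, chr10:44268089-44268338, plus strand: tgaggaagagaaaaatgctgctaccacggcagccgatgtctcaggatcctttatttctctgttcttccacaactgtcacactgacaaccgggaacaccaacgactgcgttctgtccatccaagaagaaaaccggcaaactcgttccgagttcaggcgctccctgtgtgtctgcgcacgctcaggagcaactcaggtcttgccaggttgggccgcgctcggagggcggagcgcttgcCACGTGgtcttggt

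The motif in the Atg7 window begins 132 bases before the gene start, that of Atg5 14 bases before it, and those of Atg3 94 and 71 bases before it. Of these genes Atg7 rose, while Atg3 and Atg5 had changes of 0.24 and -0.20 and did not pass. The windows of Sqstm1 and Gabarapl2, which rose over 2-fold, hold no CACGTG. The windows of members had a median GC content of 59.0% and a median of 15 CpG dinucleotides, against 52.4% and 6 over all windows. The Atg7 window had 43.2% and 3, that of Atg3 68.0% and 21, and that of Atg5 56.4% and 17. Whether a window lies at the main start of its gene was not tested.

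Other genes of the pathway were followed in lists of further cargo receptors, further core and fusion genes, and upstream regulators. Of 76 tested genes in these lists, 13 rose and 2 fell, or 17.1% and 2.63%, against 13.4% and 11.9% of all genes, and their median change was 0.26, against 0.20 over all genes. The list of further cargo receptors also held Pink1, which is a kinase and no receptor. In this list 4 of 17 tested genes rose, Pink1 included (23.5%, against 13.4% of all genes), and none fell. At an unadjusted p under 0.05, 5 were higher and 3 lower, against 24.2% and 17.5% of all genes. Ccpg1, a receptor for autophagy of the endoplasmic reticulum, had levels of 2.12 and 2.10 at passage 7, against -0.31 and -0.25 at passage 2. It rose 5.24-fold (2.39 ± 0.17, adjusted p = 0.00514) at its brightest probe, more than any member, with changes of 2.36 to 2.42 when 1 array was left out. A dimmer probe of Ccpg1 changed by 1.66, or 3.17-fold, and the mean of its probes by 2.03. Tex264, also a receptor for the endoplasmic reticulum, rose by 1.38 ± 0.18 and Pink1, the kinase that marks damaged mitochondria, by 1.35 ± 0.18, with adjusted p = 0.0120 for both. Calcoco1, named after its value was seen, was the fourth at 1.07 ± 0.18. Tex264 and Pink1 kept their calls without either passage 2 array and lost them without passage 7 replicate 1 (adjusted p = 0.0619 and 0.0616) and without passage 7 replicate 2 (0.0766 and 0.0836).

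The further core and fusion genes had 4 of 22 that rose (18.2%, against 13.4% of all genes) and none that fell (against 11.9%), with 8 higher and 0 lower at an unadjusted p under 0.05, against 24.2% and 17.5% of all genes. Sh3glb1, a membrane-bending partner of UVRAG and beclin, rose by 1.29 ± 0.19 (adjusted p = 0.0146), but its other probe changed by 0.10 and the mean of its probes did not pass. Tecpr1, which acts in fusion with lysosomes, rose by 1.13 ± 0.22 and Ei24, a protein of the endoplasmic reticulum, by 1.04 ± 0.25 (adjusted p = 0.0279 and 0.0437). Wdr45, a homologue of the WIPI genes, rose by 0.98 ± 0.23 and was named after its value was seen. Each of these calls was lost without either passage 7 array, those of Tecpr1 and Wdr45 also without passage 2 replicate 2, and that of Ei24 also without passage 2 replicate 1.

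Among upstream regulators, 5 of 37 rose and 2 fell, or 13.5% and 5.41%, which is close to the background of 13.4% for rises. Ddit3, which encodes the stress-response factor CHOP, had levels of 4.99 and 4.96 at passage 7, against 3.26 and 2.39 at passage 2. It rose 4.43-fold (2.15 ± 0.34, adjusted p = 0.0169), and its call held without any 1 array. Bcl2, which binds and restrains beclin, rose by 1.18 ± 0.21, and Lamtor2, a subunit of the lysosomal scaffold for the kinase mTORC1, by 1.15 ± 0.26. The genes that fell were Fnip1, a partner of folliculin in nutrient sensing (-0.92 ± 0.18, adjusted p = 0.0281), and Sesn1, a sestrin that restrains mTORC1 (-0.88 ± 0.20, adjusted p = 0.0366). Mtor, the kinase that holds autophagy back when nutrients are ample, had a change of 0.21 ± 0.19, and Tfeb had levels of -3.06 and -3.03 at passage 7, against -2.82 and -3.34 at passage 2. Its arrays overlapped, its 3 probes changed by 0.01 to 0.05, and neither Mtor nor Tfeb passed (adjusted p = 0.442 and 0.921). Bcl2 and Fnip1 lost their calls without any 1 array, and Lamtor2 and Sesn1 kept theirs only without passage 2 replicate 1.

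With 1 array left out, the change of a gene moves by an amount set by the gap between the 2 arrays of that passage. A small gap also favours a call, so the nearness of the changes below to those of all arrays is no separate support. Many of the members that rose missed the threshold in these fits. Wipi1, which was not called, ranged from 0.61 to 1.61, against 1.11 with all arrays. Over the 4 fits with 1 array left out, the change of Atg7 ranged from 1.33 to 1.74, that of Sqstm1 from 1.17 to 1.46 and that of Gabarapl2 from 1.05 to 1.18. Atg2a ranged from 0.82 to 0.89, Atg2b from 0.76 to 0.91, Uvrag from 0.77 to 1.15 and Nbr1 from 0.68 to 0.88. The call held in 2 of the 4 fits for Atg7 and for Sqstm1, in 1 for Gabarapl2, Atg2a and Atg2b, and in 0 for Uvrag and Nbr1. Without the passage 2 replicate 1 array the changes of Atg101 and Map1lc3a were 0.95 and 1.22, against 0.66 and 0.96 with all arrays. Those of Uvrag and Nbr1 were then 0.77 and 0.68, against 0.96 and 0.78.

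**Figure D4:**
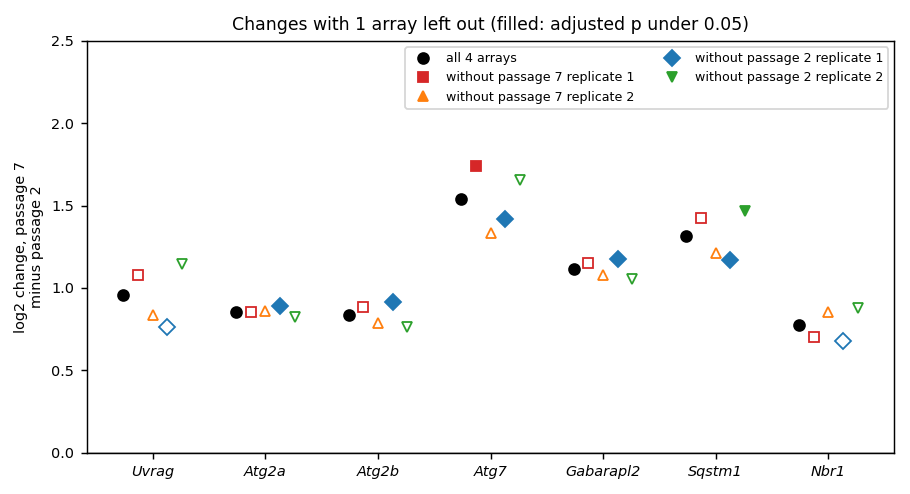
Log2 change (y axis) of the 7 members that rose, with all 4 arrays and with each array left out in turn, and filled symbols for an adjusted p under 0.05 in limma. The symbols of a gene range from 0.82 to 0.89 for Atg2a and from 1.33 to 1.74 for Atg7, and many symbols are open.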

How the data were processed

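Total RNA of fibroblasts at passage 7 and passage 2 was read on 1-colour Agilent arrays, 2 per passage, grouped by the labels. Per the file headers the intensity values are the processed signals of Feature Extraction 10.5.1.1, which had already been corrected for background. The authors' deposited value table holds log2 values of the same arrays. The submitters' processing notes name limma, without saying how that table was normalised.

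Control spots and spots marked as outliers (14 to 61 per array) were left out. The log2 signal was taken relative to the 75th percentile of its array. Spots of a probe were averaged, and a gene was represented by its brightest probe. Genes were kept where both arrays of either passage were well above background. The test was limma's (version 3.58.1, R 4.3.3; lmFit and eBayes), with Benjamini-Hochberg adjustment over all genes tested and a threshold of 0.05. Genes were named through RefSeq (GRCm38.p6), which matched 97.6% of probes with an accession. The array was designed on another build, so no gene coordinates are given. The steps were tested on simulated data. No spot of a named probe was saturated, and the number of arrays limits the precision. The deviations of arrays with the same replicate number had a correlation of -0.17, so the numbers were not taken as pairs.

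All members were named. From the lists of further pathway genes the 3 largest rises and falls past the threshold were named, besides Tfeb, Mtor and Ulk1. Members and lists were chosen with earlier results of these data known. Alternatives covered background correction, scaling, the filter on dim probes, the choice of probe, the variance model, the replicate block, the authors' table and leaving out each array.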

Additional observations from a re-analysis of the deposited data

How the results depend on the processing

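In the 12 alternative settings that kept all arrays, Atg7 passed in 11, Gabarapl2 in 9, Sqstm1 in 8, Atg2b in 7, Atg2a in 6, Uvrag in 5 and Nbr1 in 4. After normexp background correction with the 75th percentile, 0 of all genes passed, so that 0 members rose, against 7 in the reported fit, with 0 over 2-fold, 0 probes, and 0 rises and 0 falls among other pathway genes. The median of the members relative to all genes was then -0.073, against 0.33. With deviant backgrounds replaced first, a setting added after seeing the data, 2 members, 4 probes and 8 other genes rose, 0 others fell, and that median was 0.093. With the mean of all probes it was 0.19. Normexp with quantile normalisation called 7 members, 16 probes and 14 other genes higher, close to the reported fit, with 1 member over 2-fold and 7 other genes that fell. Quantile normalisation gave 3 members (1 over 2-fold) and 9 probes, median scaling 3 members and 8 probes, and no filter on dim probes 3 members, 8 probes, and 6 rises and 0 falls among other genes. The authors' values had 7 other genes that fell, and with every array well above background 4. A trended, robust variance called 11 members higher and 1 member (Rb1cc1) and 1 probe lower, with 5 falls among other genes. Those 11 make 31.4% of the tested members, against 18.6% of all genes that rose in that fit. Without the filter on dim probes the shares were 8.33% of members and 5.15% of all genes. The cause of these differences was not tested.

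The fit with the replicate number as a block called 1 member (Atg7, over 2-fold), 8 probes and 2 other genes higher and 0 others lower, but the numbers do not pair the arrays. That 1 member makes 2.86% of those tested, against 3.85% of all genes that rose. With the numbers crossed, a pairing added after seeing the data, 8 members, 16 probes and 15 other genes rose and 3 others fell. Those 8 make 22.9% of the tested members, against 17% of all genes.

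With 1 array left out, the numbers of members, probes and other genes called varied widely between the fits, and so did the share of all genes that rose. The calls of members that rose were lost without passage 7 replicate 2. The median of the members relative to all genes ranged from 0.15 to 0.36. Changes of uncalled genes that turned sign were -0.25 to 0.11 for Ulk1, -0.041 to 0.21 for Ambra1, -0.039 to 0.52 for Atg3, -0.080 to 0.079 for Atg4b, -1.34 to 0.32 for Atg4c, -0.36 to 0.40 for Atg4d and -0.22 to 0.29 for Tfeb.

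The direction of other uncalled genes also turned. After normexp correction with the 75th percentile, Atg13 was at -0.016, Pik3r4 at -0.15, Ambra1 at -0.13, Atg16l1 at -0.15, Atg4b at 0.038, Atg4c at 1.43 and Mtor at -0.087. With quantile normalisation Becn1 was at -0.034, Ambra1 at -0.015, Atg4b at 0.0099, Atg4d at -0.11 and Tfeb at -0.071. Median scaling gave -0.086 for Ambra1, -0.15 for Atg4d and -0.13 for Tfeb. The authors' value table gave -0.064 for Ambra1, -0.16 for Atg3, -0.013 for Atg16l1, -0.31 for Atg4d and -0.10 for Tfeb. Normexp with quantile normalisation gave 0.014 for Atg4b and -0.080 for Atg4d, and normexp with replaced backgrounds 0.011 for Ulk1, 0.011 for Atg4b and 0.36 for Atg4c. The p-values rest on 2 arrays per passage, and dim probes such as that of Atg4c, whose passage 2 arrays differ widely, limit what can be read there.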
